A study of Mus musculus with 9 samples.

Results

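Chemokines are small secreted proteins that steer migrating cells, and the family of their genes was followed here through 3 groups of mouse cells. A gene was a member if it was annotated as protein-coding and its symbol began with Ccl, Cxcl, Ccr or Cxcr followed by a number, or was Cx3cl1, Cx3cr1, Xcl1, Xcr1 or one of Ackr1 to Ackr4. Of the 50686 genes in the count table, 60 were members, comprising 37 ligands, 19 signalling receptors, and 4 atypical receptors. Another 3 genes with such names, Ccl19-ps1, Ccl19-ps3, and Cxcl11, were annotated as pseudogenes in the annotation used and were left out. The chemokine receptor-like gene Ccrl2 was left out by the same rule.

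The study asked whether osteoblasts could be moved toward an endothelial state, and RNA-Seq compared 3 groups of 3 libraries. The control group was MC3T3-E1, a mouse calvarial preosteoblast line. The SB216763 group was the same line given 10 µM SB216763 for 14 days. SB216763 blocks the kinase GSK3, and blocking it stabilizes β-catenin and switches on Wnt-type transcription. The EC group was mouse pulmonary endothelial cells (ECs) given no treatment, which the study sorted by FACS with a gate that is not given for these cells. The culture media, the age and strain of the mice that gave the ECs, and any vehicle in the control dishes are not given in the sources used here, and the osteoblast groups are a single cell line. The labels do not say that the replicates came from separate cultures, so p-values measure the spread between these libraries, which may be technical. ECs and osteoblasts differ in cell type, source, and culture at once, and these cannot be told apart.

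Most chemokines signal through 7-transmembrane receptors coupled to inhibitory G proteins. Inflammatory chemokines such as Ccl2 and Cxcl1 are switched on by cytokines and draw monocytes or neutrophils, while homeostatic ones such as Cxcl12 are made steadily and place stem cells, lymphocytes, and growing vessels. In bone marrow, Cxcl12 from osteolineage and perivascular cells holds hematopoietic stem cells through Cxcr4. Atypical receptors bind chemokines without G protein signalling and remove them, which shapes the gradient.

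The promoters of 4 ligands that the results turn on are shown as the 250 bases before the RefSeq start of each gene on GRCm38.p6, all on the plus strand. Cxcl1 and Cxcl2 are the neutrophil chemokines that were at or near 0 counts in osteoblasts and higher in ECs. Cxcl15 is their neighbor on the chromosome that rose with SB216763, and Cxcl12 is the most abundant ligand in every group. Capitals mark matches to 2 motifs that were chosen after the values were known, the κB motif GGANTTTCC of the NF-κB factors and the motif CTTTGAT of the TCF/LEF factors that bind β-catenin, each searched on both strands.
Cxcl1 (chr5:90890995-90891244): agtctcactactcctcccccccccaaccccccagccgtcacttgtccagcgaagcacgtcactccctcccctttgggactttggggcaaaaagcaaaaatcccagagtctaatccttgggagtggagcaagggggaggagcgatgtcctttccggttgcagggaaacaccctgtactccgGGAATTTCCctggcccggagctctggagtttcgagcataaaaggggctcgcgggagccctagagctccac
Cxcl2 (chr5:90903649-90903898): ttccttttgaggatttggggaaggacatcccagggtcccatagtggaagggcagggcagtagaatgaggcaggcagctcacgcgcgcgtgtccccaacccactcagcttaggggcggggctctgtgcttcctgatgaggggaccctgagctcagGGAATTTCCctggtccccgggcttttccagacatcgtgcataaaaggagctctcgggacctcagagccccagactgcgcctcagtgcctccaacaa
Cxcl15 (chr5:90794284-90794533): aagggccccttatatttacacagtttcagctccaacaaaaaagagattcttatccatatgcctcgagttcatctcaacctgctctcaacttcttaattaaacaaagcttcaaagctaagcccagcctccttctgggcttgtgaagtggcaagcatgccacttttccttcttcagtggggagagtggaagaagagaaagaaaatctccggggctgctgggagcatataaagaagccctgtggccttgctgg
Cxcl12 (chr6:117168285-117168534): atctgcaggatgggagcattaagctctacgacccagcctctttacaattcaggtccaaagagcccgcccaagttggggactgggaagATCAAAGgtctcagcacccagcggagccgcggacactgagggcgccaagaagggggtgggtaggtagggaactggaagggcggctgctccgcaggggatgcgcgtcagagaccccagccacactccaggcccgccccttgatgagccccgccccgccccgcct
In Cxcl1 and Cxcl2 the κB letters GGAATTTCC began 70 and 96 bases before the start. In Cxcl12 the letters ATCAAAG, the TCF/LEF motif read on the other strand, began 163 bases before the start. The Cxcl15 window held neither. Of the 46 members with such a window in the RefSeq table, 5 held the κB motif (Cxcl1, Cxcl2, Cxcl3, Cxcl10, and Ccr3), against 350 of all 32851 windows (1.07%). The TCF/LEF motif was in 1 member window, that of Cxcl12, against 1053 of all windows (3.21%). A match is a run of letters and was not tested as a binding site.

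Levels are given in CPM, counts scaled to the size of the library and normalized by the TMM method. A difference was called, by edgeR's quasi-likelihood test, when its log2 fold change was 2 or more in either direction and its FDR (Benjamini-Hochberg, over all 15531 genes tested) was below 0.01. Library totals ran from 30990107 to 68946333 counts, and 3 counts in a library, used as the floor of detection, corresponded to 0.0473 to 0.104 CPM. Of the 60 members, 21 had enough counts to be tested, namely 15 ligands, 4 receptors, and 2 atypical receptors. A member enters that test if it is expressed in a single group, so the counts of called members below describe those 21 and are no evidence about the family. Of the other 39 members, 14 had 0 counts in every library and 25 had counts, of which none exceeded 15 in a library or a mean of 0.276 CPM in a group.

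The labels were checked against cell type markers. Over 9 endothelial markers, the summed level ran from 6634 to 6826 CPM in the EC libraries, from 3.48 to 4.17 CPM in the controls, and from 4.56 to 5.13 CPM with SB216763. The defining endothelial genes Cdh5 and Pecam1 were below 1 CPM on average in both osteoblast groups. Vwf rose from 1.16 to 2.42 CPM with SB216763 (log2 fold change 1.07, edgeR FDR 1.11e-06), under the fold threshold. Of the 9 markers, 0 were called between these groups, where 3.81% of all genes were called higher and 5.84% lower. Over 6 osteoblast markers, led by Col1a1, the sum was 20090 to 28687 CPM in controls, 2826 to 2975 CPM with SB216763, and 28.9 to 38.3 CPM in ECs. Over 7 mural and fibroblast markers, led by Acta2, it was 3398 to 3565, 1153 to 1186, and 41.1 to 42.6 CPM in the same order. With SB216763 its members went both ways. Acta2, at 2915 CPM in controls and 144 CPM with SB216763, and Cspg4 were called lower. Pdgfrb went from 254 to 746 CPM (log2 fold change 1.56, edgeR FDR 5.08e-13) and Pdgfra from 33.3 to 67.0 CPM (log2 fold change 1.01, edgeR FDR 1.73e-11), both under the fold threshold of a log2 fold change of 2. Over 5 lymphatic markers the sum was 90.8 to 102 CPM in controls, 91.8 to 102 CPM with SB216763, and 248 to 265 CPM in ECs. In both osteoblast groups it was nearly all Pdpn, which averaged 97.0 and 97.7 CPM there and was called lower in ECs, at 0.115 CPM, while Flt4 and Lyve1 were called higher in ECs and carried the sum.

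Cxcl12, which signals through Cxcr4 and is scavenged by Ackr3, was the most abundant ligand. It lies on chromosome 6 at 117168535-117181367 (GRCm38, plus strand). Its levels were 226, 249, and 218 CPM in the controls, 499, 530, and 493 CPM with SB216763, and 3050, 3049, and 3021 CPM in the ECs. The 3 groups did not overlap and ran in the order control, SB216763, EC. The mean with SB216763 was 2.20 times that of the controls (log2 fold change 1.14 ± 0.06 SE, edgeR FDR 4.57e-11), which passed the FDR but not the fold threshold. In ECs it was 13.2 times that of the controls (log2 fold change 3.72 ± 0.06 SE, edgeR FDR 1.54e-17), and this was called.

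Cxcr4, the signalling receptor for Cxcl12, ran the other way. It was counted 49, 33, and 26 times in the control libraries, 2, 2, and 1 times with SB216763, and 0 times in each EC library. In CPM the control libraries held 0.772, 0.601, and 0.903, so the transcript was scarce even where it was highest. Over the groups, 108 counts in the controls stood against 5 with SB216763, a level 16.1-fold lower (95% counting interval 6.71 to 50.7), and the fall was called (edgeR FDR 1.34e-06). In ECs the level was at least 9.91-fold lower than in controls, taking a floor of 3 counts in each EC library (edgeR FDR 1.11e-07). The EC and SB216763 groups, at 0 and 5 counts, were both near the floor, and their difference was not called (edgeR FDR 0.0139).

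Ackr3, the scavenging receptor for Cxcl12, was at 4.19, 5.28, and 4.72 CPM in the controls and at 3.67, 4.30, and 3.40 CPM with SB216763, and these groups overlapped. The ECs held 113, 117, and 115 CPM. The EC mean was 24.3 times that of the controls (log2 fold change 4.61 ± 0.07 SE, edgeR FDR 6.51e-18). With SB216763 the log2 fold change was -0.31 (95% interval -0.53 to -0.09, edgeR FDR 0.0119), outside both thresholds. ECs thus had the ligand and the scavenger without detected Cxcr4 counts, while control osteoblasts had the ligand with a little of both receptors.

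**Figure D1:**
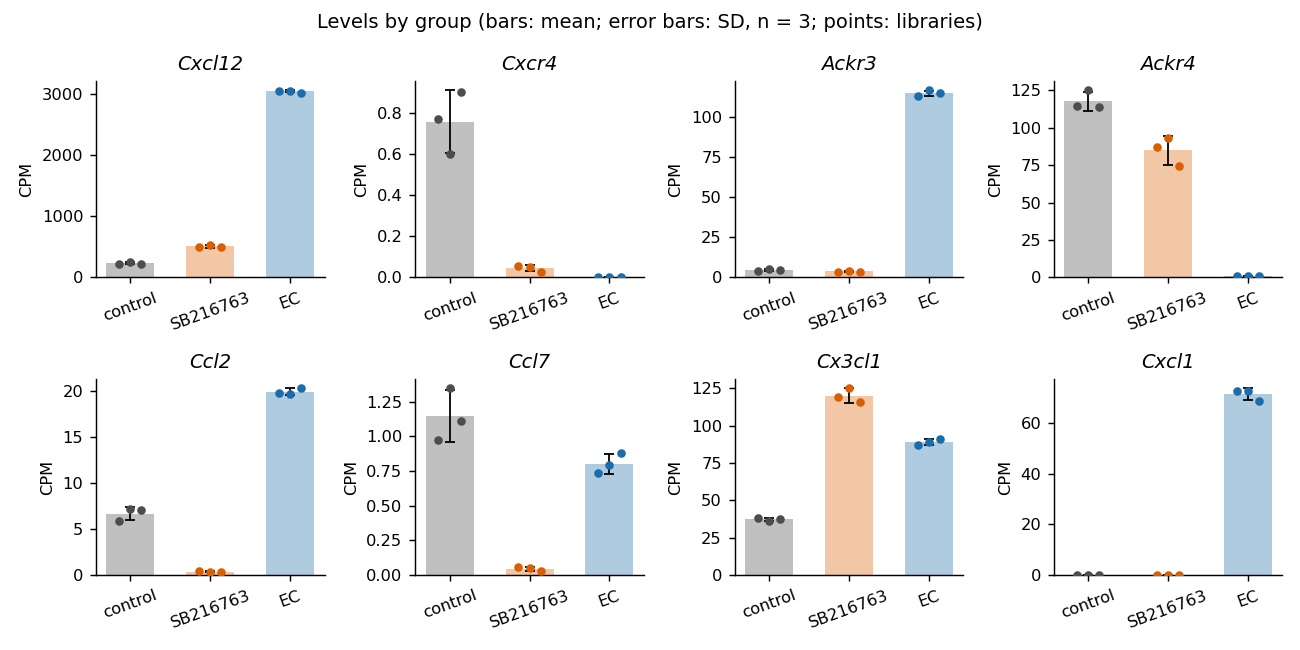
Levels in CPM (vertical axes, linear and starting at 0, each panel with its own scale) of 8 members in control, SB216763, and EC libraries; bars are means, error bars SD over n = 3, and points single libraries. Cxcl12 stands at 231, 507, and 3040 CPM in the 3 groups, Cxcr4 at 0.759 CPM in controls against 0.0456 and 0 CPM, Ackr3 and Cxcl1 are high in ECs, and Ackr4 is at 1.09 CPM in ECs against 118 CPM in controls.

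Ackr4 scavenges Ccl19, Ccl21, and Ccl25, the chemokines that guide dendritic cells and developing T cells through Ccr7 and Ccr9. It was the most abundant receptor of either kind in osteoblasts. The controls held 114, 125, and 114 CPM, the SB216763 libraries 87.0, 93.2, and 74.5 CPM, and the ECs 1.01, 1.25, and 1.02 CPM. No group overlapped another. The level in ECs was 108 times lower than in controls (log2 fold change -6.77 ± 0.11 SE, edgeR FDR 1.00e-17). With SB216763 the log2 fold change was -0.47 ± 0.07 SE (edgeR FDR 1.15e-05), under the fold threshold. The exons of Ackr4 share 479 bases with Acad11 on the opposite strand, and whether the counting used strand is not stated.

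Per kilobase of exon, which allows levels of different genes to be compared, Ackr4 led the receptors in controls at 21.9 ± 1.2 CPM per kb (SD, n = 3) and with SB216763 at 15.8 ± 1.8 CPM per kb. Ackr3 led in ECs at 34.3 ± 0.5 CPM per kb. The signalling receptors stayed at or below 1.19 CPM per kb in every group. Receptor transcripts in these cells were therefore mostly those of scavengers.

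Cx3cl1, or fractalkine, is a membrane-anchored chemokine that ECs display to catch monocytes and that Adam10 and Adam17 cut loose. It was at 38.0, 35.9, and 37.9 CPM in controls, 119, 125, and 116 CPM with SB216763, and 87.0, 88.8, and 91.3 CPM in ECs. It was highest with SB216763, and no groups overlapped. The treated mean was 3.22 times that of the controls (log2 fold change 1.69 ± 0.05 SE, edgeR FDR 2.37e-14), under the fold threshold. ECs were at 2.39 times the controls (log2 fold change 1.26 ± 0.05 SE, edgeR FDR 4.25e-13). Its receptor Cx3cr1 had 5 counts over the 9 libraries.

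Ccl2 and Ccl7 are neighboring monocyte chemokines on chromosome 11, at 82035571-82037453 and 82045712-82047525 (GRCm38). Both fell with SB216763. Ccl2 was at 5.84, 7.17, and 7.02 CPM in controls, 0.430, 0.391, and 0.327 CPM with SB216763, and 19.8, 19.6, and 20.3 CPM in ECs. The order of the groups was SB216763, control, EC, with no overlap. The treated mean was 17.5 times lower than that of the controls (log2 fold change -4.11 ± 0.15 SE, edgeR FDR 7.67e-13) and the EC mean 2.98 times higher (log2 fold change 1.59 ± 0.08 SE, edgeR FDR 1.33e-11), the latter under the fold threshold.

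Ccl7 was counted 62, 74, and 32 times in controls, 2, 2, and 1 times with SB216763, and 32, 26, and 38 times in ECs. Its level with SB216763 was 25.1-fold lower than in controls (95% counting interval 10.5 to 78.3, edgeR FDR 1.17e-08). Between ECs and controls the log2 fold change was -0.51 (95% interval -0.94 to -0.08, edgeR FDR 0.0283), which was not called. The next genes of the same cluster, Ccl11, Ccl12, and Ccl8, had 0 counts in every library, and so did Ccr2, the receptor of Ccl2 and Ccl7.

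Monocytes and macrophages also make these chemokines, so leukocyte markers were read in the same libraries. Over 12 leukocyte markers the summed level was 29.5 to 31.1 CPM in controls, 10.8 to 13.0 CPM with SB216763, and 58.8 to 61.1 CPM in ECs. The list sum was carried by Lyz2 in controls, at 26.0 CPM, and by Cd68 in ECs, at 46.6 CPM. The defining genes Ptprc, Adgre1, and Itgam stayed at or below a mean of 0.154 CPM in every group, and Cd3e had 0 counts throughout. Of the 12 markers 5 were tested, and ECs had 2 called higher than in controls (Cd68 and Laptm5) and 3 higher than with SB216763 (these and Csf1r), with 13.5% and 15.0% of all genes called higher in those comparisons. Laptm5 averaged 0.465 CPM in ECs, 0.0629 CPM in controls, and 0.0899 CPM with SB216763, and Csf1r averaged 1.41, 0.652, and 0.229 CPM in the same order. For SB216763 against control, 0 of the 5 were called in either direction, with 3.81% of all genes called higher and 5.84% lower. Lyz2 went from 26.0 to 7.04 CPM (log2 fold change -1.88, edgeR FDR 2.21e-12), and Csf1r also fell (log2 fold change -1.48, edgeR FDR 0.00107). Cd68 went the other way, from 0.532 to 1.63 CPM (log2 fold change 1.63, edgeR FDR 1.66e-06). Cd14 and Laptm5 had edgeR FDRs of 0.367 and 0.565. The part of leukocyte RNA in these differences was not tested. In bulk RNA, fewer cells that make a transcript and less RNA per cell cannot be told apart.

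The CXC chemokines that bind Cxcr2 and draw neutrophils lie in a row of 7 genes on chromosome 5, at 90759360-90905938 (GRCm38), with Pf4 and Ppbp, which the naming rule does not reach. Cxcl1 was at 72.6, 72.7, and 68.5 CPM in ECs. It had 5 counts over the controls and 3 counts over the SB216763 libraries. The level in ECs was 2095 times that in controls (95% counting interval 898 to 6455, edgeR FDR 1.94e-18), the widest ratio among the tested members that had counts in the controls.

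Cxcl2, adjacent to Cxcl1, was at 2.66, 2.71, and 2.83 CPM in ECs and had 0 counts in all 6 osteoblast libraries. Against a floor of 3 counts in each library, its level in ECs was at least 39.8-fold higher than in controls (edgeR FDR 1.40e-09) and at least 33.3-fold higher than with SB216763 (edgeR FDR 2.70e-09). These are the 2 genes whose promoters carried the κB letters printed above. Cxcl3, between them and Cxcl5 on the chromosome, had 27 counts in ECs, 1 with SB216763, and 0 in controls, too few for the test.

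Cxcl15, also called lungkine, had another pattern. It was counted 50, 49, and 53 times with SB216763, 2, 0, and 0 times in controls, and 1, 1, and 2 times in ECs. In CPM the SB216763 libraries held 1.43, 1.28, and 1.44. Lung epithelium is its known source, and 5 lung epithelial markers summed to 0.104 CPM or less in those libraries, with Epcam at 0 counts. The same sum was 0.583 to 0.619 CPM in controls and at most 0.0695 CPM in ECs. Aqp5, one of the 5, averaged 0.399 CPM in controls and 0 CPM with SB216763. The source of the Cxcl15 counts was not tested. The rise of Cxcl15 over the controls was 102-fold by counts (95% counting interval 27.7 to 848, edgeR FDR 1.94e-09). Without the first control library, which held both control counts, it was still called (edgeR FDR 1.73e-08), but the fitted log2 fold change went from 6.39 to 8.76, a value that depends on the prior count because the remaining controls had 0 counts. The level in ECs was 41.3-fold lower than with SB216763 (95% counting interval 15.8 to 154, edgeR FDR 4.27e-09). Among the 21 genes tested it was the member whose treated level lay above both other groups by the widest ratio.

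Cxcl5 had 0 counts in controls, 3, 8, and 3 counts with SB216763, and 46, 23, and 52 counts in ECs. The difference between SB216763 and control was called (edgeR FDR 0.00101) and was at least 1.83-fold against the floor. It rested on 14 counts and was not called when the fold change was computed with a prior count of 2 or tested against the fold threshold (log2 fold change 1.87, and FDR 0.0401). In ECs the level was at least 14.4-fold higher than in controls (edgeR FDR 8.17e-08). The receptors of this group were all but absent, with 1 count for Cxcr2 and 0 for Cxcr1 over the 9 libraries.

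**Figure D2:**
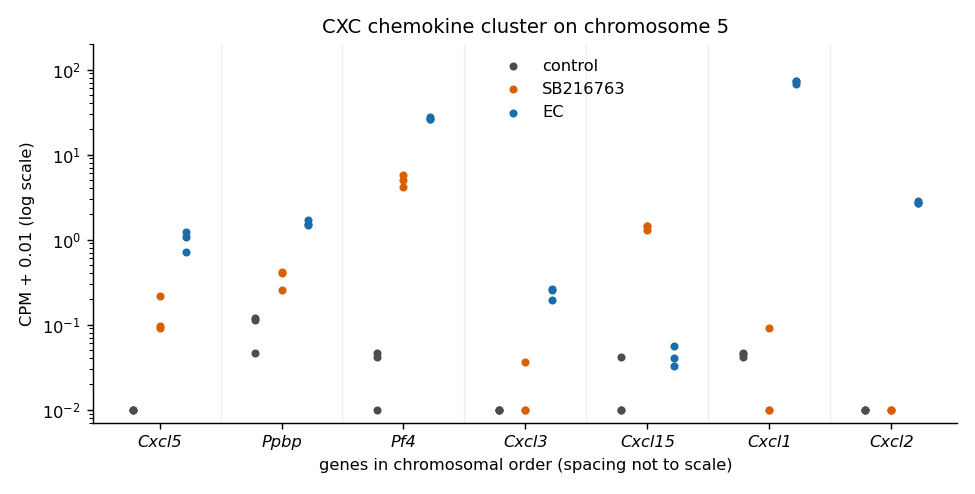
Levels of the 7 genes of the CXC cluster on chromosome 5 in chromosomal order (horizontal axis, spacing not to scale) as CPM + 0.01 on a log scale (vertical axis); each point is a library, and points at 0.01 are libraries with 0 counts. Cxcl1 and Cxcl2 sit high in EC libraries alone, Cxcl15 in SB216763 libraries alone, and Pf4 in both.

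Pf4 (Cxcl4) and Ppbp (Cxcl7), platelet chemokines with older names, lie between Cxcl5 and Cxcl3. Pf4 was at 0.0315, 0.0364, and 0 CPM in controls, 5.02, 5.71, and 4.11 CPM with SB216763, and 25.9, 26.5, and 27.6 CPM in ECs, with no overlap. Its rise with SB216763 was called (log2 fold change 7.36 ± 0.28 SE, edgeR FDR 1.13e-12). Ppbp was at a mean of 0.0836 CPM in controls, 0.346 CPM with SB216763, and 1.56 CPM in ECs, and its rise with SB216763 was called just past the fold threshold (log2 fold change 2.04 ± 0.42 SE, edgeR FDR 3.64e-04).

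Cxcl10, an interferon-induced ligand of Cxcr3, was at 0.173, 0.127, and 0.0347 CPM in controls, 0.315, 0.547, and 0.490 CPM with SB216763, and 2.06, 2.13, and 2.13 CPM in ECs. The groups did not overlap. It rose in ECs over both osteoblast groups (log2 fold change over controls 4.01 ± 0.28 SE, edgeR FDR 1.72e-09). Over the SB216763 group the log2 fold change was 2.21 ± 0.24 SE (edgeR FDR 2.97e-07). That difference was not called in a test against the fold threshold itself. With SB216763 its log2 fold change of 1.80 ± 0.37 SE (edgeR FDR 4.31e-04) missed the fold threshold, and it passed with a log2 fold change of 2.22 when the first control library was left out. Its promoter window holds the κB motif, and its exons share 133 bases with Art3 on the opposite strand. Cxcr3 was counted 24 times with SB216763, 0 times in controls, and once in ECs, and it was below the filter.

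Ccl27a and Ccl28 are epithelial chemokines that share the receptor Ccr10. Ccl27a was at 1.07, 1.13, and 0.660 CPM in controls, 2.12, 1.67, and 2.72 CPM with SB216763, and 0.0229, 0.183, and 0.0463 CPM in ECs. It fell in ECs (log2 fold change -3.66 ± 0.46 SE, edgeR FDR 2.16e-06), by more when the second EC library, which held 6 of the 9 EC counts, was left out (log2 fold change -4.73). Ccl27a has a close copy, Ccl27b, that had 0 counts in every library, so reads shared by the copies make its level uncertain. Its exons also share 8 bases with Il11ra1 on the opposite strand.

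Ccl28 was counted 39, 28, and 12 times in controls, 44, 57, and 46 times with SB216763, and once in each EC library. Its level in ECs was 21.4-fold lower than in controls (95% counting interval 7.06 to 106, edgeR FDR 2.37e-07). With SB216763, Ccl27a was at 2.28 times the controls (log2 fold change 1.12 ± 0.25 SE, edgeR FDR 8.19e-04) and Ccl28 at 2.60 times (log2 fold change 1.33 ± 0.20 SE, edgeR FDR 2.56e-05). Their receptor Ccr10 was at 1.23, 1.24, and 1.15 CPM in controls, 1.86, 2.14, and 2.18 CPM with SB216763, and 0.893, 0.548, and 0.718 CPM in ECs. Each of the 3 genes had its highest mean with SB216763 and its lowest in ECs, and Ccr10 was not called in any comparison. The share of all genes with this order was not counted, so the order is not read as a shared pattern.

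Ccl25, a thymic and gut chemokine bound by Ccr9 and Ackr4, was at 4.05, 4.08, and 4.20 CPM in controls, 7.48, 6.83, and 8.09 CPM with SB216763, and 7.72, 7.49, and 6.42 CPM in ECs. Both other groups lay above the controls, at log2 fold changes of 0.86 ± 0.10 SE (edgeR FDR 5.80e-07) and 0.81 ± 0.09 SE (edgeR FDR 8.38e-07), and they overlapped each other. Its exons share 204 bases with Elavl1 on the opposite strand, which had 43100 counts over the libraries. Ccr9 had 9 counts in all.

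Ccl5, a T cell and monocyte chemokine, was at 0.142, 0.182, and 0.208 CPM in controls, 0.115, 0.0782, and 0.0545 CPM with SB216763, and 1.53, 1.34, and 1.53 CPM in ECs. It rose in ECs over controls (log2 fold change 3.09 ± 0.25 SE, edgeR FDR 8.19e-09). With SB216763 the log2 fold change was -1.03 (95% interval -1.98 to -0.08, edgeR FDR 0.0655). Ccl9, a macrophage chemokine in the same chromosome 11 row, was at 1.04, 1.33, and 1.29 CPM in controls, 1.20, 1.04, and 0.708 CPM with SB216763, and 0.641, 0.640, and 0.510 CPM in ECs, and it was not called.

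Cxcl16, a membrane-anchored ligand of Cxcr6, was below 1 CPM in every library and was not called either. Its means were 0.745, 0.489, and 0.442 CPM in control, SB216763, and EC libraries, and its exons share 552 bases with Zmynd15 on the opposite strand. Cxcr6 was below the filter, with 43 counts over all libraries.

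Ccr7 and Xcr1 are receptors of dendritic cells and T cells. Ccr7 was at 0.142, 0.0728, and 0.174 CPM in controls, 0.143, 0.0782, and 0.0817 CPM with SB216763, and 0.802, 0.944, and 0.857 CPM in ECs. It rose in ECs over controls (log2 fold change 2.79 ± 0.31 SE, edgeR FDR 4.52e-07). Xcr1 had 8 counts in controls, 6 with SB216763, and 51 in ECs, a level 7.84 times that of the controls (95% counting interval 3.69 to 19.1, edgeR FDR 2.64e-04). Without the second control library, which had 0 counts, the fitted log2 fold change of Xcr1 went from 2.89 to 2.25 and stayed called. Neither passed a test against the fold threshold itself (FDR 0.0178 and 0.120), and ECs held less than 1 CPM of each.

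**Figure D3:**
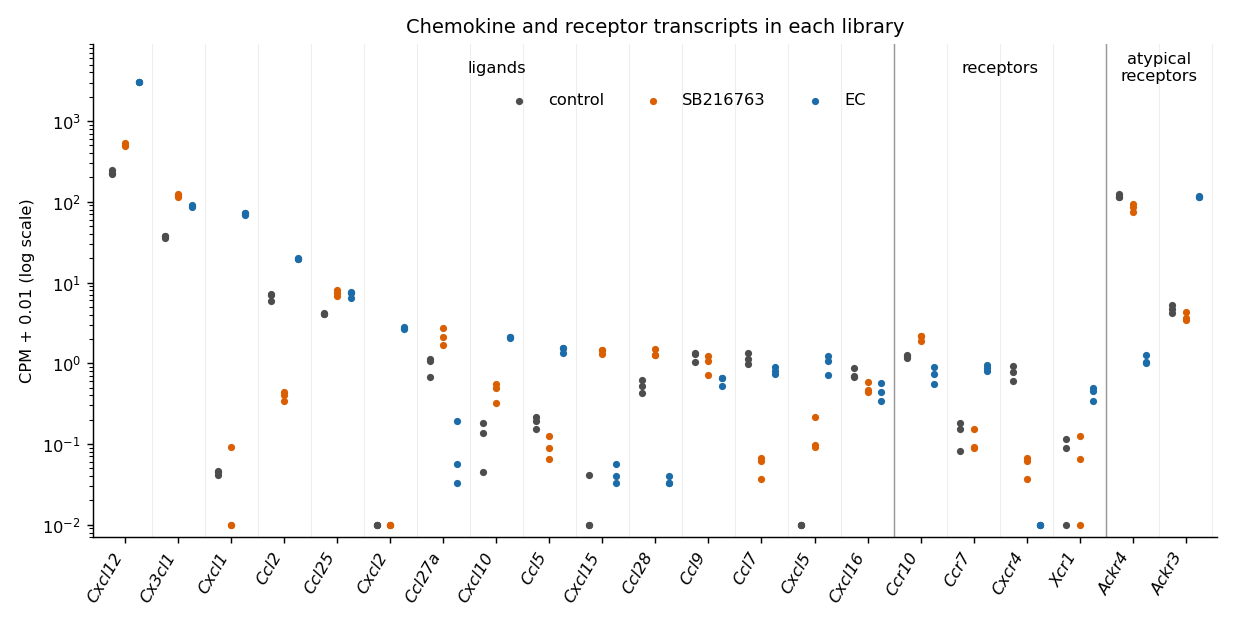
Levels of the 21 members tested, grouped into ligands, receptors, and atypical receptors (horizontal axis), as CPM + 0.01 on a log scale (vertical axis); each point is a library, colored by group, and points at 0.01 are libraries with 0 counts. Ligands span from 0 counts to 3050 CPM, the 4 signalling receptors stay at or below 2.18 CPM, and Ackr3 and Ackr4 exchange places between osteoblasts and ECs.

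Counted over the members, SB216763 gave 2 higher (Cxcl15 and Cxcl5) and 3 lower (Ccl2, Ccl7, and Cxcr4) of 21 tested. Over all genes tested, 3.81% were called higher and 5.84% lower in that comparison. With the fold threshold lowered to a log2 fold change of 1, Ccl27a, Ccl28, Cxcl10, Cxcl12, and Cx3cl1 joined the higher members, which made 7 higher and 3 lower, against 11.1% and 13.0% of all genes. The median log2 fold change of the 21 was 0, with Cxcl2 at 0 counts in both groups, and that of all genes was 0.01.

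ECs against controls gave 9 members higher and 4 lower, where 13.5% of all genes were called higher and 9.87% lower. The higher ones were Cxcl1, Cxcl2, Cxcl5, Cxcl10, Cxcl12, Ccl5, Ackr3, Ccr7, and Xcr1. The lower ones were Cxcr4, Ackr4, Ccl27a, and Ccl28. The median log2 fold change was 1.26 over the 21, also with Cxcl2, Cxcl5, and Cxcr4 set to their bounds, and 0.01 over all genes.

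ECs against SB216763 gave 11 members higher and 4 lower, where 15.0% of all genes were called higher and 10.3% lower. Ccl2 and Ccl7 joined the higher members, at log2 fold changes of 5.69 ± 0.13 SE (edgeR FDR 6.41e-16) and 4.05 ± 0.40 SE (edgeR FDR 8.85e-08). Cxcl15 was among the lower ones and Cxcr4 was not. The comparisons share libraries, so their counts are not independent of each other.

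**Figure D4:**
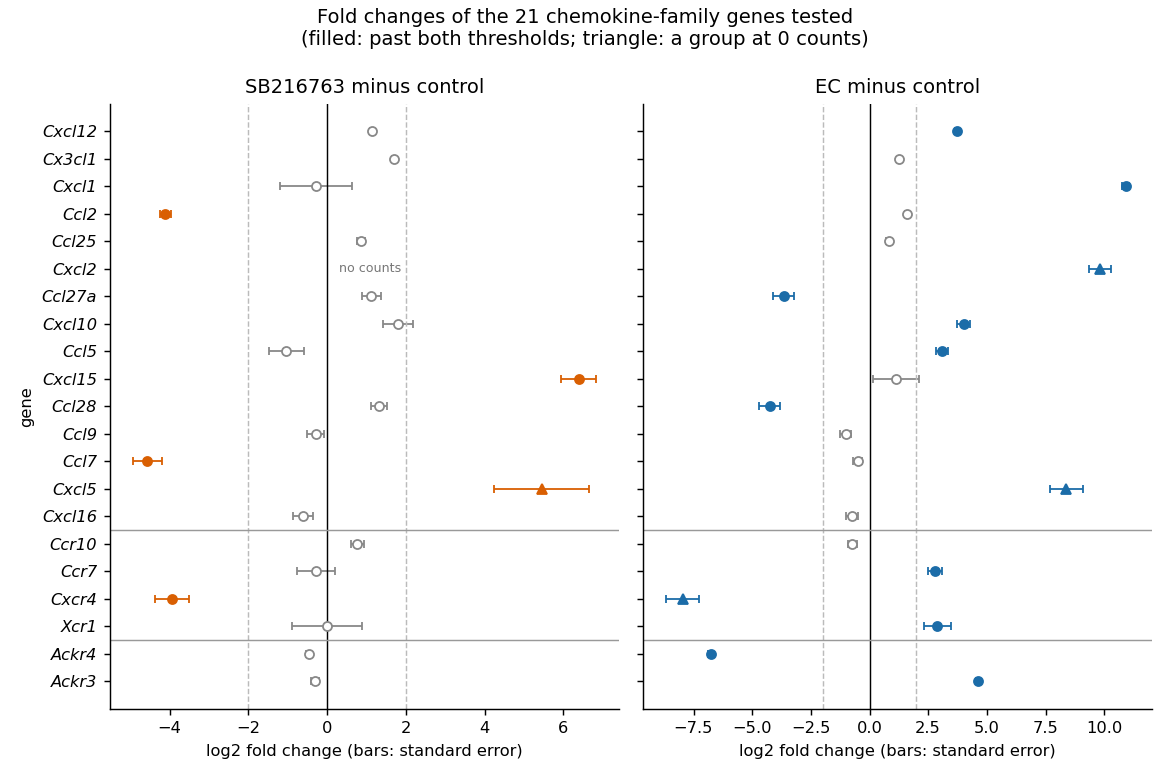
Log2 fold changes (horizontal axes, with bars for the standard error) of the 21 members tested for SB216763 minus control and EC minus control; filled symbols passed both thresholds, open ones did not, dashed lines mark the fold threshold, and triangles mark fits against a group at 0 counts, whose size depends on the prior count. Ccl2, Ccl7, and Cxcr4 lie left of the line with SB216763 and Cxcl15 and Cxcl5 right of it.

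The makeup of the ligand pool was read per library. All member ligands together held 272 to 302 CPM in controls, 625 to 670 CPM with SB216763, and 3218 to 3248 CPM in ECs. By counts, Cxcl12 made up 80.2% to 82.5% of the ligand signal in controls, 78.7% to 79.1% with SB216763, and 93.9% in ECs. After division by the length of all annotated exons, it made up 58.3% to 61.0% in controls, 63.7% to 64.3% with SB216763, and 81.2% to 81.4% in ECs. Whether its share was higher in controls or with SB216763 thus depended on the division. Cx3cl1, after the same division, made up 18.3% to 21.1% in controls, 31.2% to 31.7% with SB216763, and 4.82% to 5.11% in ECs. Per kilobase, Ccl2 stood behind Cxcl12 and Cx3cl1 in controls at 5.87 ± 0.64 CPM per kb (SD, n = 3), and with SB216763 it was at 0.336 ± 0.046 CPM per kb. In ECs, Cxcl1 came next after Cxcl12 among the member ligands, at 38.0 ± 1.3 CPM per kb. Pf4 and Ppbp, outside the naming rule, were not in this pool, and their levels were not divided by exon length. Pf4 averaged 4.95 CPM with SB216763 and 26.7 CPM in ECs, so the shares and ranks hold for members only.

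Genes around the family were read from lists, whose counts by edgeR were the same numbers by limma-voom and by DESeq2. They stand beside the shares of all genes called, which were 3.81% higher and 5.84% lower for SB216763 against control, 13.5% and 9.87% for ECs against controls, and 15.0% and 10.3% for ECs against SB216763. The share of all genes with an unadjusted edgeR p under 0.05 was not computed. List counts at that cutoff, given below, therefore cannot be read as traits of the lists. Of 15 genes of NF-κB and its feedback loop, all tested, SB216763 gave 1 higher, Nfkbiz, an atypical IκB, at 18.6 against 4.25 CPM (log2 fold change 2.15 ± 0.08 SE, edgeR FDR 1.23e-12), and 0 lower. At an unadjusted edgeR p under 0.05 whatever the fold, 9 had a higher value and 4 a lower one. Tnfaip3, the feedback enzyme A20, was at 55.2 against 14.1 CPM (log2 fold change 1.97 ± 0.05 SE, edgeR FDR 6.57e-15), just under the threshold. In the other direction and also under it, Rel, the NF-κB subunit c-Rel, was at 8.62 against 31.2 CPM (log2 fold change -1.86 ± 0.08 SE, edgeR FDR 4.37e-12). In ECs, 4 were higher than in controls, namely Nfkbia, Nfkbiz, Tnfaip3, and Bcl3, and 0 lower, with 11 higher and 2 lower at an unadjusted p under 0.05. Nfkbia, the inhibitor IκBα, was at 118 CPM in ECs against 22.8 CPM in controls (log2 fold change 2.38 ± 0.06 SE, edgeR FDR 7.97e-16). Against the SB216763 group, ECs had 0 genes of the list called higher and 1 lower, Irf1, an interferon-response factor. At an unadjusted p under 0.05, 12 were higher and 1 lower.

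Of 18 cytokine and Toll-like receptor genes that act above chemokine genes, all tested, SB216763 gave 2 higher by edgeR and 0 lower. At an unadjusted p under 0.05, 14 were higher and 0 lower. Tnfrsf1b, a receptor for TNF, went from 14.5 to 154 CPM (log2 fold change 3.41 ± 0.07 SE, edgeR FDR 3.21e-16), and Il6ra, the IL-6 receptor, from 2.57 to 22.7 CPM (log2 fold change 3.14 ± 0.07 SE, edgeR FDR 3.21e-15). ECs had 3 higher (Il1rap, Tlr3, and Tlr4) and 2 lower (Tnfrsf1b and Lifr) than controls, and 2 higher and 4 lower than the SB216763 group. The 3 and 2 of 18 against controls are near the 13.5% and 9.87% of all genes, and the 2 higher of 18 against SB216763 lie near 15.0%.

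Of 24 genes that carry the signal below chemokine receptors, 20 were tested. SB216763 gave 1 higher, the G protein subunit Gng2, and 2 lower, the migration adaptor Elmo1 and the G protein brake Rgs4, each at a mean below 2 CPM in both osteoblast groups. In ECs 9 were higher and 3 lower than in controls, and 8 higher and 3 lower than with SB216763, where 13.5% and 9.87%, and 15.0% and 10.3%, of all genes were called. The higher ones included Arrb1, which encodes β-arrestin 1, at 492 against 33.4 CPM in controls, and Rgs2 at 289 against 0.331 CPM. The lower ones were Grk3, a receptor kinase, Pik3cd, and Rgs4.

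Of 16 genes that cut or present chemokines, 13 were tested, and SB216763 gave 1 higher by edgeR and 0 lower, with 9 higher and 3 lower at an unadjusted p under 0.05. The higher one was Mmp14, a membrane protease that cuts Cxcl12 and activates Mmp2, at 604, 564, and 576 CPM in controls and 2680, 2755, and 2548 CPM with SB216763 (log2 fold change 2.19 ± 0.05 SE, edgeR FDR 4.10e-15). In ECs, 6 were lower than in controls by edgeR, namely Mmp2, Mmp9, Mmp14, and the heparan sulfate carriers Sdc2, Sdc3, and Sdc4, and 0 were called higher. At an unadjusted p under 0.05, 5 were higher and 8 lower. By edgeR 6 were also lower than with SB216763, again with 0 called higher, and 3 were higher and 9 lower at an unadjusted p under 0.05. Adam10 and Adam17, which shed Cx3cl1, were not called.

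Of 9 chemokine-related genes outside the rule, 7 were tested. SB216763 gave 2 higher, Pf4 and Ppbp, and 1 lower, Cmklr1, the chemerin receptor, at 0.138 against 0.761 CPM (log2 fold change -2.51 ± 0.29 SE, edgeR FDR 1.03e-06). In ECs 4 were higher and 1 lower than in controls, the former being Pf4, Ppbp, Cmklr1, and Ccrl2, and the latter Rarres2, which encodes chemerin. Over these 5 lists in turn, the median log2 fold change with SB216763 was 0.36, 0.48, 0.08, 0.53, and -0.29, against 0.01 over all genes. The third list includes Pik3r5, which had 0 counts with SB216763.

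Most signalling receptors were scarce or undetected, whereas 2 atypical receptors were not, Ackr3, which binds Cxcl12, at 115 CPM in ECs, and Ackr4, which binds Ccl25, at 118 and 84.9 CPM in controls and with SB216763. Of the 19 signalling receptors, Ccr2, Cxcr1, and Ccr1l1 had 0 counts in every library, and 12 others had from 1 to 43 counts in all and were not tested. A receptor with 0 counts could still be present at up to 0.104 CPM in the shallowest library. Of the other atypical receptors, Ackr1, which marks venular ECs, had 0 counts, and Ackr2, which scavenges inflammatory chemokines, had 2. Ccl19, Ccl21a, and Ccl21b, the lymphatic ligands of Ccr7, had 0 counts in every library. The 5 lymphatic markers were mixed in ECs, with means of 170 CPM for Flt4 and 87.8 CPM for Lyve1. Prox1, Reln, and Pdpn had means of 0.0154, 0.102, and 0.115 CPM there. Ccl21a and Ccl21b are near-identical copies, so reads could be lost between them.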

How the data were processed

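The authors aligned reads from 9 mouse RNA-Seq libraries with STAR (version 2.5.3a and the build GRCm38 per the submitters' processing notes) and deposited gene counts in whole numbers, without normalization, for 50686 genes. Library preparation used total RNA; the annotation, strand setting, and handling of reads that map to several genes are not given in the sources used here, so overlapping genes and close copies are uncertain. Groups came from sample titles and treatments, since the same treatment protocol text stands on every sample, ECs included. Symbols were found for 50376 identifiers, and coordinates, exon lengths, and gene types came from GENCODE mouse release 21 (GRCm38), which held 50462. Promoters came from RefSeq (GRCm38.p6).

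Counts were tested in R 4.3.3 with edgeR 4.0.16 (filterByExpr, TMM, quasi-likelihood fit of all 9 libraries, no block, prior count 0.125), with the fold and FDR cutoffs of the study's methods and Benjamini-Hochberg adjustment over 15531 genes. Standard errors were derived from the F statistic. Where a group had few counts, ratios carry exact 95% intervals of pooled counts, and a group at 0 was set to 3 counts in each library. Such intervals and floors cover counting error only, since reads without molecular identifiers are not independent molecules. Depth ran from 30990107 to 68946333 counts per library. Scripts were tested on simulated data. No pair of replicates agreed within sampling noise.

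All members with a mean of at least 1 CPM in a group or called in a comparison were named with values, others by counts or as partners of these. The members and lists were chosen with earlier results of these data known, and the motifs after the values of the members. The alternatives comprised DESeq2 1.42.0, voom in limma 3.58.1, other normalizations, filters, thresholds, and prior counts, fits of 2 groups, the replicate number as a block, and each library left out.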

Additional observations from a re-analysis of the deposited data

How the results depend on the processing

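The counts of called members were recomputed under 12 alternatives and with each of the 9 libraries left out. With SB216763 the number of higher members was 2, and it became 7 with the fold threshold at 1 on the log2 scale, 1 in a test against the fold threshold itself, and 1 with a prior count of 2, in both of the last cases through the loss of Cxcl5, which rests on 14 counts. The other counts stayed within 1.5 times their value. Without a filter on low counts, 46 members were tested and the higher members in ECs became 13 against controls and 15 against SB216763, where 10.1% and 10.4% of the 29670 genes then tested were called higher, and the higher members with SB216763 became 3, against 2.77%. Cxcl10 was also called higher with SB216763 under scaling by library size alone, and without the first control library. Scaling by library size moved the median log2 fold change of all genes from 0.01 to 0.22 for SB216763 and from 0.01 to 0.13 for ECs against controls. Cxcr4 was called lower in ECs than with SB216763 by limma-voom and at an FDR of 0.05. With a replicate block the 6 counts were 2, 3, 9, 4, 11, and 4, as without it. The correlations of same-numbered libraries ran from -0.0804 to 0.258, with not every pair over 0.1, so the numbers were not taken as pairs.

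Of 1302 fold changes of members under these alternatives, 1272 kept direction and call, 13 passed where the reported fit did not, 7 no longer passed, and 10 turned direction. None of the latter belonged to the 33 results called. They were Xcr1 with SB216763 (-0.023 by DESeq2, -0.0013 with only these groups, and -0.96 to 0.60 as libraries were left out), Cxcl1 with SB216763 (-3.65 to 0.28), and, in ECs against SB216763, Cxcl16 (-0.34 to 0.014) and Ccl25 (-0.11 to 0.015). The cause was not tested. Depth limits the members with few counts, namely Cxcr4, Cxcl5, Cxcl15, Ccl7, and Xcr1.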
